A study of Mus musculus with 6 samples.

Results

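Of 56 mouse genes listed as large-subunit assembly factors, nucleolar helicases, GTPases and abundant nucleolar proteins, 55 were measured and are described here, out of 23185 genes with a symbol. The genes were taken from a list of names, which was drawn up with earlier results of these data known. Rsl24d1 is not analysed here. The arrays measured total RNA of a line of group 2 innate lymphoid cells (ILC2s), lymphocytes that secrete type 2 cytokines, derived from C57BL/6J mice and kept in IL-2 and IL-33. Both groups received a lentiviral CRISPR vector with GFP: the control group carried a non-target guide and the other group, called Myc KO here as in its label, a guide against Myc. GFP-positive cells were sorted 6 days after transduction, with 3 arrays per group. The labels name neither separate cultures nor separate transductions for the replicates, so the spread between arrays may be technical, and they give no share of cells in which Myc was cut.

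A ribosome's large (60S) subunit is built in the nucleolus around precursor ribosomal RNA. Assembly factors bind the precursor in a fixed order, helicases and methyltransferases act on its RNA, AAA ATPases and GTPases release spent factors, and export adaptors carry the particle to the cytoplasm. MYC is a transcription factor known in many growing cells as an activator of genes for ribosome production, which is why these genes are of interest in a Myc knockout.

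Myc mRNA was not lower but higher in Myc KO, without overlap (log2 difference 0.36 ± 0.080 SE, unadjusted p = 0.0033 and adjusted p = 0.127 in limma). Its log2 values were 9.27, 9.33 and 9.39 in controls and 9.55, 9.79 and 9.73 in Myc KO. A frameshift need not lower an mRNA, so the absence of a fall does not test the label. The cause of the higher level was not tested, nor was loss of MYC protein. The labels were kept as given, and every direction below is that of the library labelled Myc KO minus the library labelled control. Array medians were 3.27 to 3.34 on the log2 scale. Of 10 ILC2 markers, 8 were above the median gene, and Thy1 and Il17rb were not. At an unadjusted p under 0.05, without overlap, Gata3 (-0.25), Il7r (-0.22) and Ptprc (-0.17) were lower and Il2ra (0.19) and Icos (0.16) higher. Of the other lineages, 5 of 8 T cell, 3 of 4 B cell, 3 of 5 myeloid and 4 of 5 NK cell markers lay below it. The summed log2 level of the NK cell markers was 17.2 to 17.8 in controls and 18.5 to 18.6 in Myc KO, and that of the myeloid markers 18.1 to 18.8 and 17.6 to 18.03. In each of these lists 1 gene differed most, Klrk1 at 0.68 ± 0.093 and Itgam at -0.63 ± 0.10. The other NK cell markers Ncr1, Eomes, Prf1 and Klrb1c stood at 0.22, 0.10, 0.10 and -0.0048. The other myeloid markers Adgre1, Mpo, Csf1r and Cd68 stood at 0.12, 0.06, -0.0055 and -0.11. Among the T cell markers Cd3g was lower without overlap (-0.43 ± 0.13), and 3 of the 8 had a positive difference. Klrk1 was the 1 marker of these lists past an adjusted p of 0.05. The part of these markers in the results below was not tested, and in such bulk RNA a change in the number of cells of a type cannot be told apart from a change in RNA per cell.

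Most 60S assembly genes were slightly higher in the arrays labelled Myc KO, and none of them passed the test over all genes. Of the 55, 45 had a positive log2 difference and 10 a negative one, with a median of 0.10, against 52.2% positive and a median of 0.0077 over all 23185 genes. The count of positive differences was 41 with each array centred on its median and 48 under cyclic loess. The single differences ran from -0.14 for Npm1 to 0.32 for Nop16, which is 1.25-fold (95% confidence interval 1.09 to 1.43). At a Benjamini-Hochberg adjusted p under 0.05 in limma, 0 of 55 were called, where 0.453% of all genes were (0.254% higher and 0.198% lower), and the smallest adjusted p of a member was 0.144, for Ftsj3. At an unadjusted p under 0.05, 16 members were higher and 0 lower, against 6.97% and 7.91% of all genes. The count of higher members depended on single arrays: it was 9 without control replicate 3, 10 without Myc KO replicate 2 and 7 without Myc KO replicate 3, where 5.65%, 6.38% and 6.78% of all genes were higher. With the replicate number as a block it was 10, against 6.41% of all genes. The 3 Myc KO values lay above all 3 control values for 20 members and below them for 0, against 9.25% and 10.6% of all genes.

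Genes of like brightness had fewer positive differences. All 55 members lay between a control mean of 5.06 and 9.13, above the median gene at 3.34. Of the 7291 genes in that range, a comparison chosen after the data were seen, 39.4% had a positive difference, an unadjusted p under 0.05 was found for 7.83% in the higher and 16.3% in the lower direction, and without overlap 11.8% had Myc KO above control and 22.9% below. Their median difference was -0.04.

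**Figure D1:**
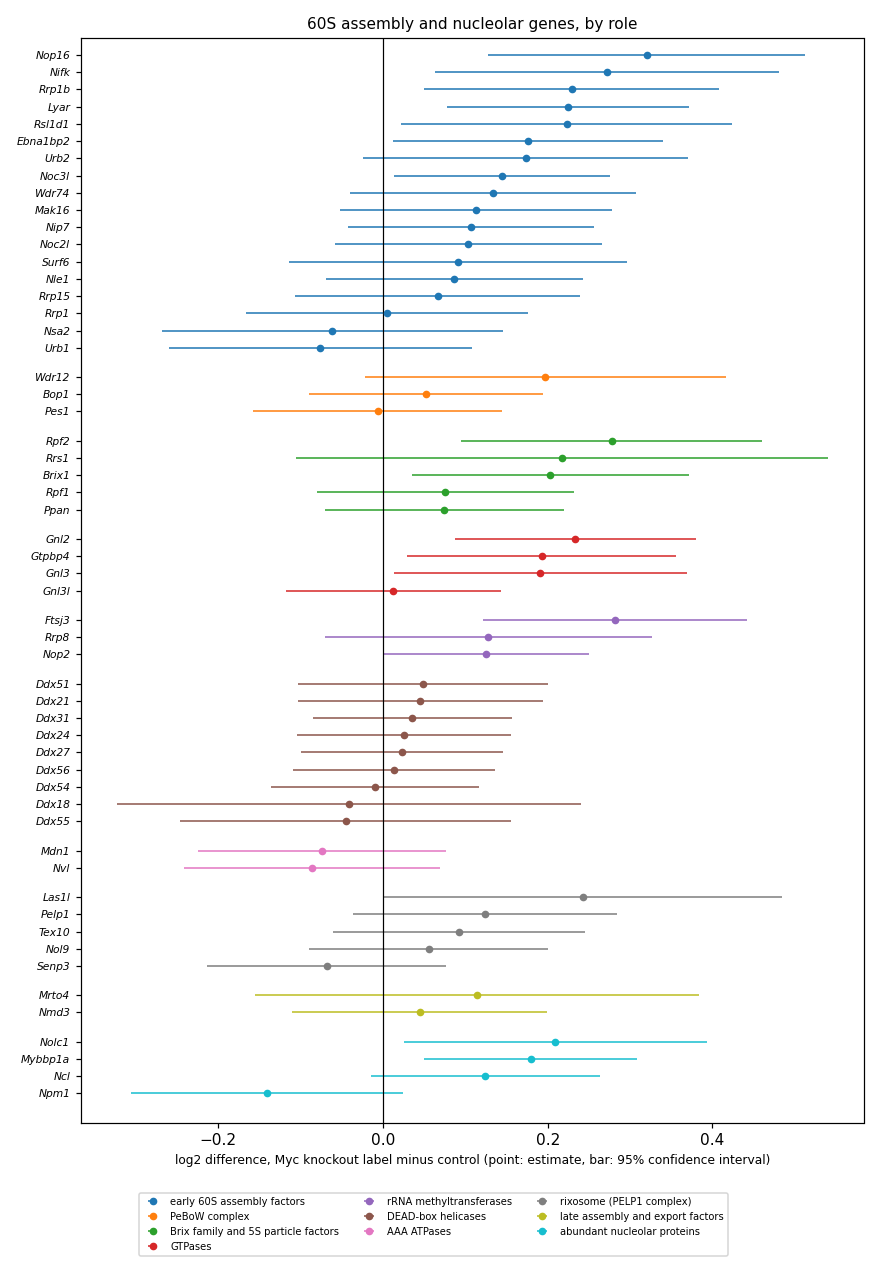
Log2 difference, Myc KO minus control, for each of the 55 measured genes (y axis), with points as limma estimates and bars as 95% confidence intervals, coloured by role. Estimates run from -0.14 for Npm1 to 0.32 for Nop16, and the 9 DEAD-box helicases lie close to 0.

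The group of early factors, many of which bind the precursor RNA while it is being made and folded, held the highest difference. Of 18 measured, 16 had a positive difference, 7 of them with an unadjusted p under 0.05, with a median of 0.12. Over all genes 52.2% were positive and 6.97% higher at that p. Nop16 (gene 28126), the mouse counterpart of a yeast nucleolar pre-60S protein, was at 5.41, 5.47 and 5.65 in controls and 5.75, 5.85 and 5.89 in Myc KO. All 3 Myc KO arrays were above the highest control, with a log2 difference of 0.32 ± 0.081 (adjusted p = 0.165 in limma). Lyar (gene 17089), a zinc finger protein of the nucleolus, was at 7.99, 7.99 and 7.90 against 8.11, 8.23 and 8.20. Its groups did not overlap either, and the difference was 0.22 ± 0.061 (adjusted p = 0.185 in limma).

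Nifk, which binds the forkhead-associated domain of the proliferation marker Ki-67, showed 7.46, 7.50 and 7.22 in controls and 7.62, 7.71 and 7.68 in Myc KO, where control replicate 3 was the lowest array. Rsl1d1, a ribosomal L1 domain protein, was also lowest in control replicate 3, with 9.24, 9.19 and 8.97 against 9.31, 9.38 and 9.37. Rrp1b was at 7.07, 7.02 and 7.02 in controls and 7.13, 7.35 and 7.31 in Myc KO, where Myc KO replicate 1 was closest to the controls. Noc3l, a partner in the NOC complexes that travel with pre-60S particles, and Ebna1bp2, the mouse EBP2 protein, had differences of 0.14 ± 0.055 and 0.18 ± 0.068. These 5 made up, with Nop16 and Lyar, the 7 early factors higher at an unadjusted p under 0.05.

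The other 11 early factors did not reach an unadjusted p of 0.05. Urb2 (0.17 ± 0.083) and Nip7 (0.11 ± 0.062) had Myc KO arrays above all controls, while the groups overlapped for Wdr74, Mak16, Noc2l, Surf6, Nle1, Rrp15 and Rrp1, whose differences ran from 0.0044 for Rrp1 to 0.13 for Wdr74. Rrp15 had 1 value, 5.06, in 5 of the 6 arrays, and 5.26 in Myc KO replicate 2, so its difference rests on 1 array. Urb1, which encodes a large scaffold of early particles, was at 5.97, 5.94 and 6.16 in controls and 5.92, 6.01 and 5.92 in Myc KO (-0.08 ± 0.077). Nsa2 was at 5.14, 5.18 and 4.90 against 5.02, 4.98 and 5.04 (-0.06 ± 0.087). For both genes the groups overlapped.

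The PeBoW complex, in which PES1, BOP1 and WDR12 act together in the processing of the large-subunit RNAs, had overlapping groups for each of its 3 genes. Bop1 was at 7.83, 7.75 and 7.81 in controls and 7.91, 7.79 and 7.85 in Myc KO (0.05 ± 0.059). Pes1 was at 7.74, 7.62 and 7.64 against 7.60, 7.66 and 7.71, a difference of -0.01 ± 0.063 that was 0.02 under cyclic loess. Wdr12 was at 5.84, 5.77 and 5.59 against 5.80, 6.01 and 5.97 (0.20 ± 0.092, adjusted p = 0.376 in limma), with overlapping groups. The 95% confidence interval of the Pes1 difference was -0.16 to 0.15.

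Brix-domain proteins and RRS1, some of which bring the 5S RNA particle into the pre-60S subunit, were all positive: 5 of 5, with a median of 0.20. Of all genes 52.2% were positive. Rpf2 (gene 67239), which with RRS1 docks that particle, was at 6.97, 6.94 and 6.75 in controls and 7.11, 7.19 and 7.19 in Myc KO (0.28 ± 0.076, adjusted p = 0.186 in limma). Its groups did not overlap. Rrs1 itself was at 5.52, 5.89 and 5.48 against 5.84, 6.01 and 5.69, and its spread left 0.22 ± 0.13 with overlapping groups. Brix1 was at 7.86, 7.97 and 7.77 against 8.12, 8.03 and 8.06 without overlap (0.20 ± 0.070), and Rpf1 and Ppan both stood between 0.07 and 0.08.

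Among the GTPases, the nucleolar G proteins that check and release pre-60S factors, 3 of 4 were higher at an unadjusted p under 0.05. Of all genes 6.97% were higher at that p. Gnl2 (gene 230737) was at 7.87, 7.76 and 7.78 in controls and 8.02, 7.997 and 8.10 in Myc KO, a 1.18-fold difference (interval 1.06 to 1.30; adjusted p = 0.172 in limma). Gtpbp4, the mouse NOG1, was at 7.91, 7.99 and 7.99 against 8.21, 8.05 and 8.21. Gnl3, which encodes nucleostemin, was at 7.63, 7.69 and 7.53 against 7.82, 7.72 and 7.90. The Myc KO arrays were above every control for these 3 genes, as for 9.25% of all genes. Gnl3l, the nucleostemin-like paralogue, differed by 0.01 ± 0.054, and its groups overlapped.

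**Figure D2:**
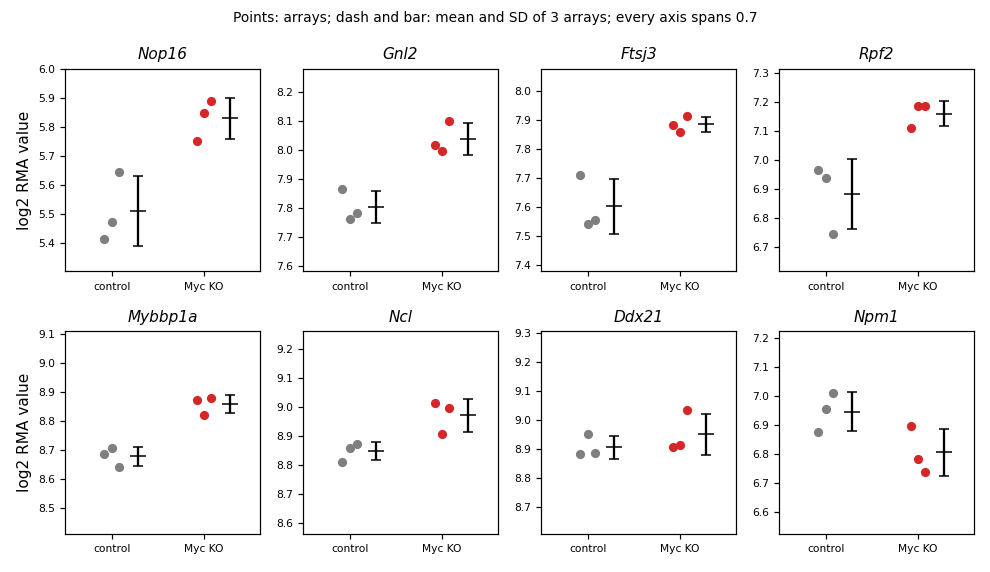
Log2 RMA value (y axis) of 8 genes in each array, control in grey and Myc KO in red, with the mean and SD of 3 arrays beside the points and each axis spanning 0.7. The groups are apart for Nop16, Gnl2, Ftsj3, Rpf2, Mybbp1a and Ncl and overlap for Ddx21 and Npm1.

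Of the methyltransferases that modify precursor ribosomal RNA, Ftsj3 had the smallest p of all members. Ftsj3 (gene 56095), a 2'-O-ribose methyltransferase, was at 7.71, 7.54 and 7.55 in controls and 7.88, 7.86 and 7.91 in Myc KO. The 3 Myc KO arrays lay close together and above every control, a 1.22-fold difference (interval 1.09 to 1.36; adjusted p = 0.144 in limma). Nop2 (gene 110109), which methylates a cytosine of the large-subunit RNA, was at 8.27, 8.23 and 8.22 against 8.38, 8.36 and 8.35, with a small difference of 0.13 ± 0.052 and no overlap. Rrp8, an adenine methyltransferase, differed by 0.13 ± 0.083 with overlapping groups.

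The DEAD-box helicases, which remodel RNA in the particle with the energy of ATP, stood near 0. Of 9, 6 were positive, 0 were past an unadjusted p of 0.05 in either direction, and the median was 0.02. Over all genes 52.2% were positive, and 6.97% were higher and 7.91% lower at that p. Ddx21, an RNA helicase that also works in ribosomal DNA transcription, was at 8.88, 8.95 and 8.88 in controls and 8.91, 8.91 and 9.03 in Myc KO (0.05 ± 0.062). Ddx51 was at 5.39, 5.40 and 5.41 against 5.36, 5.53 and 5.46 (0.05 ± 0.063), so that the Myc KO arrays lay on both sides of the controls. Ddx31 was the 1 helicase whose groups did not overlap, by a difference of 0.04 ± 0.050.

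Ddx18 was at 7.97, 8.06 and 7.93 in controls and 7.69, 7.997 and 8.14 in Myc KO, a difference of -0.04 ± 0.12 that was 0.08 without Myc KO replicate 1. Ddx55 was at 5.44, 5.63 and 5.34 against 5.43, 5.42 and 5.42 (-0.05 ± 0.084, and 0.0023 under cyclic loess). Ddx54 was at 7.61, 7.63 and 7.61 against 7.64, 7.57 and 7.61 (-0.0099 ± 0.053, and 0.01 under cyclic loess). Groups overlapped for these 3 genes. Ddx24, Ddx27 and Ddx56 had differences of 0.03, 0.02 and 0.01. The upper ends of the 95% confidence intervals were 0.24 for Ddx18 and at most 0.20, for Ddx51, in the other helicases. The difference between the helicases and the other roles was not tested.

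Both AAA ATPases, large enzymes that strip factors from the particle, had negative differences. Mdn1, the mouse midasin, was at 7.11, 7.17 and 7.27 in controls and 7.11, 7.09 and 7.12 in Myc KO (-0.07 ± 0.063). Nvl was at 7.46, 7.51 and 7.58 against 7.44, 7.36 and 7.50 (-0.09 ± 0.065). The groups overlapped for both.

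The rixosome works with midasin and cuts the internal transcribed spacer. A positive difference was found for 4 of its 5 genes in the list (Pelp1, Tex10, Las1l, Senp3 and Nol9), against 52.2% of all genes. Las1l, its endonuclease, was at 6.06, 5.83 and 5.70 in controls and 6.16, 6.02 and 6.15 in Myc KO (0.24 ± 0.10, unadjusted p = 0.0504 and adjusted p = 0.336 in limma). Control replicate 1 overlapped the Myc KO arrays. Pelp1, a scaffold, was at 6.05, 5.88 and 5.99 against 6.13, 6.05 and 6.11 (0.12 ± 0.067). Senp3, a SUMO protease, was at 6.68, 6.82 and 6.74 against 6.65, 6.70 and 6.69 (-0.07 ± 0.061). Tex10 and the RNA kinase gene Nol9 differed by 0.09 ± 0.064 and 0.06 ± 0.061, and 0 of the 5 passed an unadjusted p of 0.05. At that p, 6.97% of all genes were higher and 7.91% lower. Wdr18, a further rixosome gene, was counted with the 60S factors outside the list. Its difference was 0.18 ± 0.075 without overlap (unadjusted p = 0.047 and adjusted p = 0.328 in limma).

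Late factors were measured by 2 genes. Mrto4, whose product holds the place of the stalk protein P0, varied widely within both groups, at 7.39, 7.66 and 7.37 in controls and 7.59, 7.74 and 7.43 in Myc KO (0.11 ± 0.11). Nmd3, the adaptor for nuclear export, was at 7.59, 7.61 and 7.66 against 7.59, 7.66 and 7.75 (0.04 ± 0.065). Neither of these 2 members separated the groups.

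Of the 4 abundant nucleolar proteins, 3 had positive differences and Npm1 a negative one. Mybbp1a (gene 18432), which binds MYB and takes part in ribosomal RNA transcription and processing, was at 8.69, 8.71 and 8.64 in controls and 8.87, 8.82 and 8.88 in Myc KO (0.18 ± 0.054, adjusted p = 0.216 in limma). Nolc1, the phosphoprotein that chaperones small nucleolar particles, was at 7.33, 7.53 and 7.52 against 7.63, 7.75 and 7.62 (0.21 ± 0.077). Ncl (gene 17975), which encodes nucleolin, was at 8.81, 8.86 and 8.88 against 9.01, 8.91 and 8.997. Groups did not overlap for these 3 genes, although the difference of Ncl was only 0.12 ± 0.058 (adjusted p = 0.378 in limma).

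Npm1 (gene 18148), which encodes nucleophosmin, a histone and ribosome chaperone, was at 6.87, 6.95 and 7.01 in controls and 6.90, 6.78 and 6.74 in Myc KO. Myc KO replicate 1 overlapped the controls, and the difference was -0.14 ± 0.069 (adjusted p = 0.398 in limma), the most negative of the 55. Npm1 has many near-identical pseudogenes that a probe set can share, and whether this bears on its value was not tested.

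**Figure D3:**
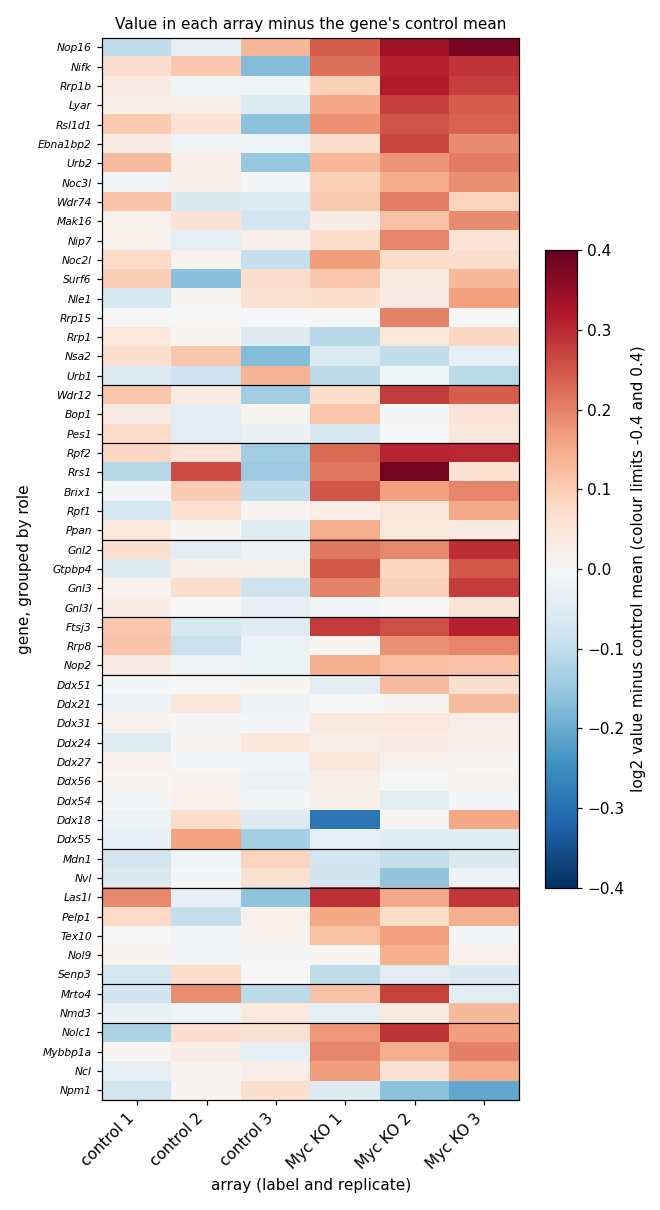
Value of each of the 55 genes (rows, grouped by role) in each of the 6 arrays (columns) minus that gene's control mean, on the log2 scale, with colour limits of -0.4 and 0.4. Red cells are most common in the 3 Myc KO columns, among early factors, GTPases and Brix family genes.

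Across arrays, the members' median above their control means was 0.013, 0.0075 and -0.019 in control replicates 1, 2 and 3, and 0.071, 0.095 and 0.13 in Myc KO replicates 1, 2 and 3. All 3 Myc KO arrays thus stood above the controls as a median, and 41, 44 and 44 of the 55 genes exceeded their control mean there, against 31, 30 and 18 in the control replicates. The control arrays are part of that mean and the Myc KO arrays are not, so these counts are not a like comparison. Over all genes the median above the control mean lay between 0 and 0.0052 in every array.

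Other genes of ribosome assembly had mostly positive differences, and genes for 60S ribosomal proteins mostly negative ones. Of 29 measured 60S factors outside the list, 23 had a positive difference, 8 of them with an unadjusted p under 0.05 (0 lower), and the median was 0.08. The smallest p among them was that of Heatr3 (0.24 ± 0.052, adjusted p = 0.121 in limma), which helps bring ribosomal protein L5 to the nucleus. Of 52 genes of the small-subunit processome and 40S maturation, 43 were positive, and 17 were higher and 0 lower at that p, with a median of 0.11, where 6.97% and 7.91% of all genes were higher and lower and 52.2% positive. The smallest p there was that of Rrp9 (0.37 ± 0.083, adjusted p = 0.129 in limma), a protein of the U3 particle. Of 32 measured genes for proteins of the 60S subunit itself, 11 were positive, with a median of -0.10, while 1 was higher and 3 were lower at that p, shares close to those over all genes. The smallest p there was that of Rpl9 (0.69 ± 0.16, adjusted p = 0.144 in limma), at a control mean of 1.53 and thus below the array medians. Rpl6, 1 of the 3 lower genes, also lay below the array medians, at a control mean of 2.79. So did Rpl10 (1.44), Rpl37 (3.04), Rpl3 (3.09) and Rpl7 (3.23), each with a negative difference. Of the ribosomal protein genes 34.4% were positive, against 52.2% of all genes. Their control means ran from 1.44 to 11.17, a wider range than that of the members, in which 39.4% of genes were positive. The median SE of their differences was 0.16, against 0.067 for the members. Ribosomal protein genes also have many near-identical copies, whose part in these values was not tested. In these 3 lists 0 genes passed an adjusted p of 0.05.

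**Figure D4:**
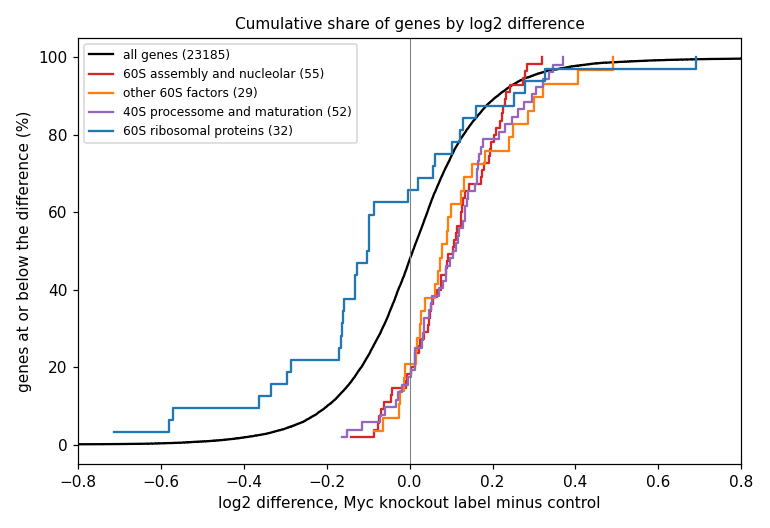
Cumulative share of genes (y axis, percent) at or below each log2 difference, Myc KO minus control (x axis), for all 23185 genes and for 4 gene lists. The 55 assembly and nucleolar genes, the 29 other 60S factors and the 52 small-subunit genes run to the right of all genes, with medians of 0.10, 0.08 and 0.11 against 0.0077, and the 32 ribosomal protein genes to the left in most of their range, with a median of -0.10.

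MYC and its partner MAX bind the E-box CACGTG, so the 250 bases before the start of each gene were searched for it. RefSeq promoter entries (GRCm38.p6) matched 48 of the 55 members, and where several starts were listed the most upstream was used. CACGTG, which reads the same on both strands, was in 3 of the 48 (6.25%), against 6.84% of 17452 measured genes with an entry. The 3 windows are printed because they are the ones in this list that hold the motif, shown in capitals in the direction of the gene: Nop2 at chr6:125131633-125131882 (+ strand), Pelp1 at chr11:70410032-70410281 (- strand) and Nmd3 at chr3:69721805-69722054 (+ strand).
Nop2: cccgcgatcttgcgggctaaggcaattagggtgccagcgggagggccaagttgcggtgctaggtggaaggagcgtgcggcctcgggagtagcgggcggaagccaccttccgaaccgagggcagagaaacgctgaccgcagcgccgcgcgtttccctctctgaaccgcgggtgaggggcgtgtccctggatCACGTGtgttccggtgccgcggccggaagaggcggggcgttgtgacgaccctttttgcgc
Pelp1: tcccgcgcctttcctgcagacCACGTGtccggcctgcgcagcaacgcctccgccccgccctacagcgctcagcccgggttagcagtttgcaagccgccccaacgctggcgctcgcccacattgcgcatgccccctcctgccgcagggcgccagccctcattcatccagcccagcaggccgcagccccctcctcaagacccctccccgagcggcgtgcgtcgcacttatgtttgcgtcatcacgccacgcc
Nmd3: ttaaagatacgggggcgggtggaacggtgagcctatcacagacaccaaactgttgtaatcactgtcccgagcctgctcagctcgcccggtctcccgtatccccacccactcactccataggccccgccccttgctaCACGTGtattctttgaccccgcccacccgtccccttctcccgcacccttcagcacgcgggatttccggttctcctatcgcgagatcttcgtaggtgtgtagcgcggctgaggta
The motif starts 60 bases before the start of Nop2, 229 before that of Pelp1 and 114 before that of Nmd3. Of these 3 genes Nop2 alone passed an unadjusted p of 0.05, and the other 14 such members with an entry had no CACGTG in the window. Rpf2 had the motif only before a second, more downstream start. The median difference was 0.12 for the 3 genes with the motif and 0.10 for the 45 without, and over all genes -0.0036 with and 0.0061 without. A match is a description of letters and not of binding, and a missing match says only that these letters are not in the window. The windows of the members had a median GC content of 60%, against 55.6% over all genes.

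Of the small RNA genes that lie inside the loci of members, 5 were measured, in Ncl, Gnl3 and Urb2. In Ncl lie Snora75 and Snord82, which encode guide RNAs for pseudouridylation and 2'-O-methylation. Snora75 was at 7.95, 7.24 and 7.31 in controls and 9.13, 9.21 and 8.57 in Myc KO, without overlap (log2 difference 1.47 ± 0.24, adjusted p = 0.0751 in limma), where its host gene differed by 0.12. Snord82 was at 10.44, 10.44 and 10.37 against 10.63, 10.56 and 10.48 (0.14 ± 0.063, adjusted p = 0.356 in limma), also without overlap. Snord19 and Snord69, which lie in Gnl3, were at -0.08 ± 0.12 and -0.09 ± 0.14, with overlapping groups. Mir1967, a microRNA gene in Urb2, was at 2.33, 2.01 and 2.52 in controls and 1.69, 2.04 and 2.00 in Myc KO, below the array medians and with overlapping groups (-0.38 ± 0.15, adjusted p = 0.319 in limma). Neither snoRNA of Ncl passed over all genes, and the difference between host and guest was not tested.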

How the data were processed

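Affymetrix arrays were deposited as 1 table of log2 values, which the authors made with RMA per the submitters' processing notes, which also list limma 3.14.4. RMA corrects background, equalises the arrays' intensity distributions and summarises each probe set, so a change common to all transcripts cannot be seen. Array version, probe set definition and genome build: not given in the sources used here. Probe set identifiers are Entrez Gene numbers; 23185 of 25206 had 1 symbol, 0 several and 2021 none, and all 23185 matched RefSeq by number.

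Groups came from sample titles. All 23185 genes were fitted without a filter in R 4.3.3 with limma 3.58.1 (lmFit, eBayes), Myc KO minus control, two-sided, with Benjamini-Hochberg adjustment over all of them. Differences are given ± SE and levels are RMA log2 values per array (n = 3 per group), and so few arrays limit the precision. The procedure was run on simulated data with independent noise, where detection was required only for changes far larger than those of the members. Figures used matplotlib 3.10.9.

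The members and lists were chosen with earlier results of these data known, so no p is given for a list. Full values go to Ncl, Npm1, Nop2, Bop1, Pes1 and Wdr12, the 2 members of each role with the smallest p and every member with a negative difference; of other lists to the member with the smallest p. Further members were named after their values were seen, to account for all, and so were some genes of other lists. Alternatives were a replicate block, an intensity trend, median centring, cyclic loess, a filter on dim genes, all probe sets and each array left out.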

Additional observations from a re-analysis of the deposited data

How the results depend on the processing

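Under the 12 alternatives run, limma called 0 members at an adjusted p under 0.05. With the replicate block or an array left out, only 0 to 2 of all 23185 genes were called, so these fits say nothing of the members; with an intensity trend 370 were, and with the filter on dim genes 549 of 11593. The number higher at an unadjusted p under 0.05, 16 as reported, was 10 with the replicate block, 11 under median centring, 15 over all probe sets, 17 with the filter, 19 with the trend, 20 under cyclic loess and 7 to 14 with an array left out; 1 was lower under median centring, and 0 to 1 with an array left out. The members' median difference, 0.10 as reported, was 0.079 under median centring, 0.133 under cyclic loess and 0.089 to 0.106 with an array left out. For the 29 members that the naming rule selected, the only ones refitted singly, 8 of 348 values changed sign, and 25 of the 29 kept theirs throughout. Under cyclic loess Pes1 was at 0.0166, Ddx54 at 0.0140 and Ddx55 at 0.0023. With an array left out, Pes1 ran from -0.0332 to 0.0303 (above 0 without control replicate 1 or Myc KO replicate 1), Ddx55 from -0.113 to 0.0351 (above 0 without control replicate 2), Ddx18 from -0.140 to 0.0833 (above 0 without Myc KO replicate 1) and Ddx54 from -0.0258 to 0.0069 (above 0 without Myc KO replicate 2). The cause was not tested. Over all genes, same-numbered arrays correlated at -0.070, -0.012 and -0.017 in their deviations from the group means. Whether such arrays share a culture or a transduction cannot be told from this, so the block fit is one of shared numbers only. With 3 arrays per group, the median SE of a member's difference was 0.067, which limits what can be told from 0.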
